A study of Caenorhabditis elegans with 10 samples.

Results

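The genes rimb-1, unc-44 and jph-1 of Caenorhabditis elegans act in neurons or muscle, and all carried peaks of the heterochromatin proteins HPL-1 and HPL-2 in profiles of intestine and hypodermis. They were chosen by name because of these peaks, so that the presence of peaks at them is a description and was not tested. They are 3 of 19971 protein-coding genes on the 6 chromosomes of the WBcel235 annotation. An interval, meaning 1 peak of the authors' lists, was assigned to a gene when it overlapped the gene body or 1 kb on either side by at least 1 bp. In all, 20 of 4583 intervals met this rule, with 8 of 1346 for HPL-1 in intestine, 7 of 1665 for HPL-2 in intestine and 5 of 1572 for HPL-2 in hypodermis. All 3 genes had an interval in each list, where 6.93% of protein-coding genes had one of HPL-1 in intestine, 8.31% one of HPL-2 in intestine and 8.1% one of HPL-2 in hypodermis. These values chose the genes, so nothing is read from the difference.

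HPL-1 and HPL-2 belong to the heterochromatin protein 1 family, whose members bind histone H3 methylated at lysine 9. RIMB-1 is the RIM-binding protein of the presynaptic active zone, where it helps to hold voltage-gated calcium channels close to the sites of vesicle release. UNC-44 is an ankyrin, an adaptor that ties membrane proteins to the spectrin skeleton, and it is required for axon guidance and for the sorting of proteins between axon and dendrite. JPH-1 is a junctophilin, which tethers the endoplasmic or sarcoplasmic reticulum to the plasma membrane in muscle and neurons, so that calcium channels of both membranes lie close together. No profile analysed here is of neurons or muscle.

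Binding was measured by DamID-seq in L4 larvae, in which a chromatin protein fused to the Dam methylase marks nearby GATC sites. The groups were HPL-1::Dam in intestine (strain MRS579), HPL-2::Dam in intestine (MRS580) and HPL-2::Dam in hypodermis (MRS578), set against GFP::Dam in intestine (BN1051) and GFP::Dam in hypodermis (BN561), with 2 libraries in each. The lists for both intestinal fusions therefore share their GFP::Dam group. Only 1 peak list per fusion and tissue was used here, filed under the sample of replicate 1 but named as an average, and it was taken as the average of its group. A list holds no values per library, so no value below has an error between replicates and conditions were not tested against each other. The fusions' promoters and the libraries' depth were not given in the sources used here.

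jph-1 (T22C1.7, chromosome I, 7946179 to 7951593, 5.415 kb) carried 1 interval in every list, and it was the same interval, from 7947961 to 7948690. It was 730 bp wide and lay inside the gene body, 1.782 to 2.511 kb from the end of the gene with the lower coordinate. The annotation table used here gives no strand and no exons, so positions are counted from that end for every gene. In the HPL-2 hypodermis list the interval scored 3.55 on the authors' scale, which made it number 3 of 1572 intervals from the top (0.191%). In HPL-2 intestine the score was 1.38, at rank 242 of 1665 (14.5% from the top). In HPL-1 intestine the score was 0.96, at rank 153 of 1346 (11.4%). The scale of the scores is not stated, so only ranks within a list are set side by side. The authors' FDR of this interval was 6.54e-05 for HPL-1 intestine, 3.49e-05 for HPL-2 intestine and 1.93e-05 for HPL-2 hypodermis. Ranked from the lowest FDR, it stood at 128 of 1346 (9.51%), 379 of 1665 (22.8%) and 178 of 1572 (11.3%) in the same order.

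Intervals with the same start and the same end in all lists were a small part of each list. There were 20 in the genome, which make up 1.49% of HPL-1 and 1.2% of HPL-2 intervals in intestine and 1.27% of those in hypodermis. Interval edges are edges of GATC fragments, and the share among intervals that overlap in all lists was not counted. Of the 20, the jph-1 interval had the highest hypodermis score. In intestine others of the 20 scored higher than jph-1, up to 1.4 for HPL-1 and 1.99 for HPL-2. In the HPL-1 list the jph-1 interval was isolated. The next HPL-1 interval lay 100.815 kb beyond the upper end of jph-1, and that list had 0 others within 100 kb of the gene. The nearest other intervals of HPL-2 lay on the lower side, 16.515 kb from the gene in intestine and 17.071 kb in hypodermis, with 265.233 and 380.727 kb free of intervals on the upper side. Each HPL-2 list had 2 other intervals within 100 kb of the gene. The gene lies near the middle of its chromosome, at 52.7% of the extent.

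rimb-1 (Y39A3CL.2, chromosome III, 1788333 to 1807147, 18.815 kb) carried 1 interval of HPL-1 in intestine, 3 of HPL-2 in intestine and 2 of HPL-2 in hypodermis. In all lists its highest scoring interval lay in the same place, towards the upper end of the gene body, and ended at the same base, 1805614. The HPL-2 intestine interval started at 1803310 and was 2305 bp wide. It scored 2.47, rank 5 of 1665, and was the 46th widest of that list. The HPL-1 intestine interval started at 1804633, was 982 bp wide and scored 1.28, rank 22 of 1346 (1.63% from the top). The HPL-2 hypodermis interval started at 1804756, was 859 bp wide and scored 2.22, rank 203 of 1572 (12.9%). The intervals were nested, with the hypodermis interval inside that of HPL-1 and the HPL-1 interval inside that of HPL-2 in intestine. Together they spanned 14.977 to 17.281 kb of the gene, or 79.6% to 91.8% of its length, and 859 bp were covered in all lists. Over the whole lists, 44 upper ends were present in all 3. These make up 3.27% of HPL-1 and 2.64% of HPL-2 intervals in intestine and 2.8% of those in hypodermis. The share among intervals that overlap in all lists was not counted.

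The remaining intervals of rimb-1 scored low. HPL-2 in intestine had another interval in the gene body (1799690 to 1800482, 11.357 to 12.149 kb), with a score of 0.71 at rank 1398 of 1665 and an FDR of 2.20e-02. The HPL-2 lists of both tissues also held an interval that began at 1808108, beyond the upper end of the gene, with scores of 0.66 in intestine (rank 1525 of 1665) and 1.45 in hypodermis (rank 1138 of 1572). The FDR was 3.62e-02 in intestine but 2.46e-04 in hypodermis, so the low score there came with a low FDR. Both intervals were assigned to rimb-1 by only 40 bp of its flank. They also overlapped the neighbouring calpain family gene clp-4 and the noncoding genes Y39A3CL.11 and Y39A3CL.10. No list had an interval in the first 11 kb of rimb-1 from its lower end. The next intervals outside the window lay 68.345 kb from the gene for HPL-1 intestine (score 0.98), 6.709 kb for HPL-2 intestine (score 0.97) and 28.36 kb for HPL-2 hypodermis (score 1.41). The gene lies on the left arm of chromosome III, at 13.04% of the extent.

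**Figure D1:**
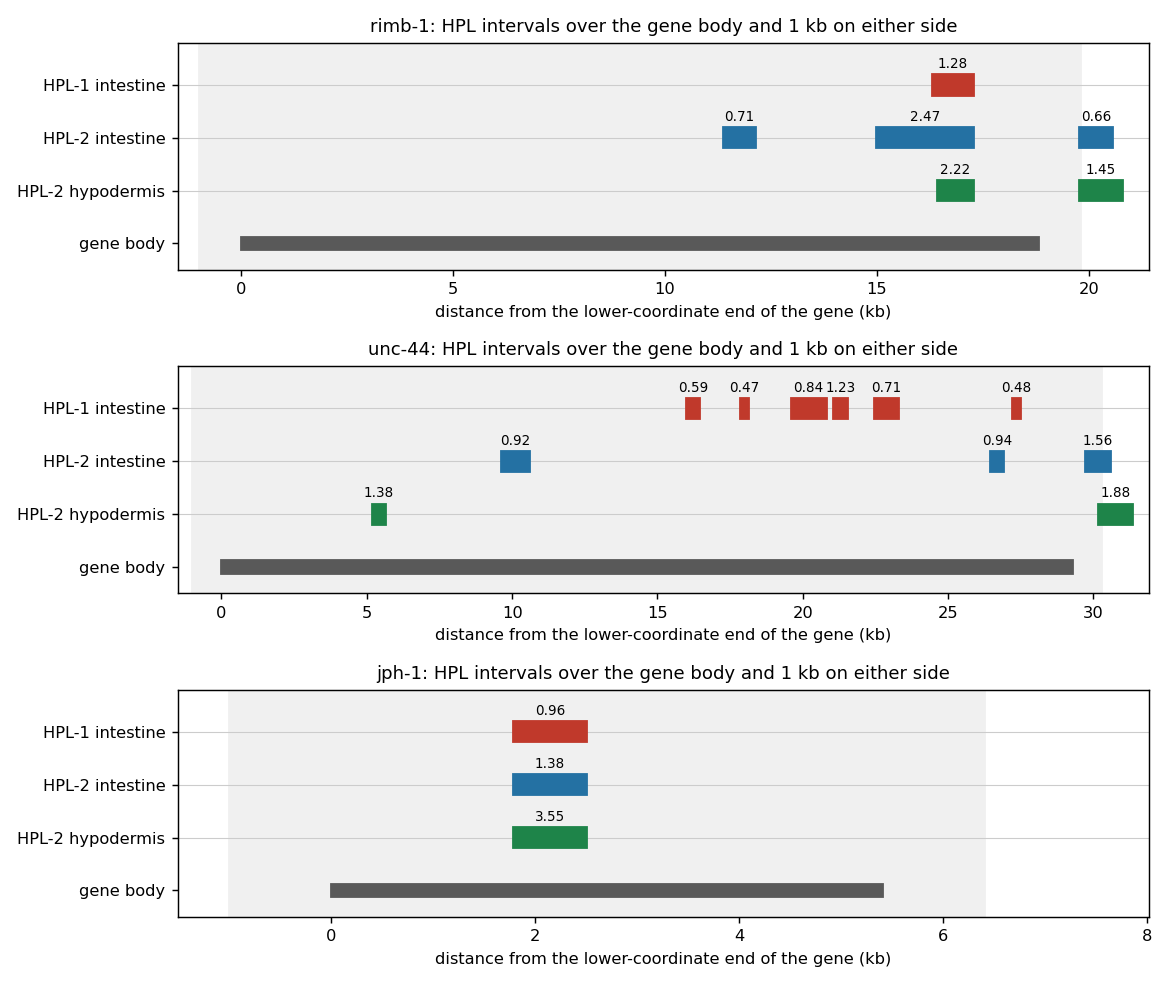
Intervals of each peak list (coloured boxes, with the authors' score above) over rimb-1, unc-44 and jph-1, against the distance in kb from the lower-coordinate end of the gene; the grey bar is the gene body and the shaded band adds 1 kb on either side. The lists meet at the same 730 bp in jph-1 and share an upper end in rimb-1, while in the body of unc-44 no interval of one list overlaps an interval of another.

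unc-44 (B0350.2, chromosome IV, 5975557 to 6004857, 29.301 kb) differed from the others in that the lists did not meet in its body. It carried 6 intervals of HPL-1 in intestine, 3 of HPL-2 in intestine and 2 of HPL-2 in hypodermis, and 0 bp of the gene body were covered by more than 1 list. How often the lists meet at other genes with an interval in every list was not counted, so this is not read as unusual. All 6 HPL-1 intervals lay in the upper part of the gene, between 15.998 and 27.509 kb, and together covered 3706 bp or 12.6% of the body. The highest scoring (5996591 to 5997106) had a score of 1.23, rank 32 of 1346 (2.38% from the top), with an FDR of 2.52e-03. The widest (5995146 to 5996373, 1228 bp) scored 0.84, rank 276 of 1346, had an FDR of 1.06e-07 and lay 217 bp from the highest scoring. Another (5997996 to 5998878) scored 0.71 at an FDR of 2.05e-04. The other 3 scored 0.59, 0.47 and 0.48, and their FDR of 3.67e-02 was the highest in the list, a value that 242 of 1346 HPL-1 intervals share.

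HPL-2 was found at other places of unc-44. In intestine, HPL-2 had an interval at 9.605 to 10.607 kb (score 0.92, rank 876 of 1665, FDR 3.62e-02) and another at 26.441 to 26.936 kb (score 0.94, rank 839, FDR 5.62e-07). This second interval was 276 bp from the nearest HPL-1 interval without overlapping it. In hypodermis, HPL-2 had an interval at 5.162 to 5.677 kb with a score of 1.38, rank 1286 of 1572, and an FDR of 3.52e-02. Both tissues had their highest scoring HPL-2 interval beyond the upper end of the gene, where the table lists no other gene. In intestine it began 414 bp past the gene (6005271 to 6006147) and scored 1.56, rank 123 of 1665 (7.39% from the top). In hypodermis it began 868 bp past the gene (6005725 to 6006911) and scored 1.88, rank 457 of 1572 (29.1%). These intervals overlapped by 423 bp, 48.2% of the intestine interval and 35.6% of the hypodermis interval. An HPL-1 interval (6007261 to 6008656, score 0.64) lay further out, 2.404 kb past the gene and 1404 bp outside the window.

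The unc-44 body also holds many small annotated genes. Chromosome IV carries 14714 of the 15363 piRNA genes of the table, the small RNAs that guide the Piwi protein PRG-1 in the germ line, and 20 of them lie within unc-44 together with 11 other noncoding RNA genes. Of the piRNA genes, 19 lay below the first HPL-1 interval, the last of these ending at 12.592 kb, and so did all 11 other noncoding genes. The single remaining piRNA gene lay above the last HPL-1 interval, so that 0 fell within the span of the HPL-1 intervals. The HPL-2 hypodermis interval at 5.162 kb overlapped the piRNA gene 21ur-14209 and the noncoding gene B0350.79, and the HPL-2 intestine interval at 9.605 kb overlapped the noncoding gene B0350.76. Over the whole of chromosome IV, a piRNA gene lay under 3.7% of HPL-1 and 1.61% of HPL-2 intervals in intestine and under 5.18% of those in hypodermis.

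**Figure D2:**
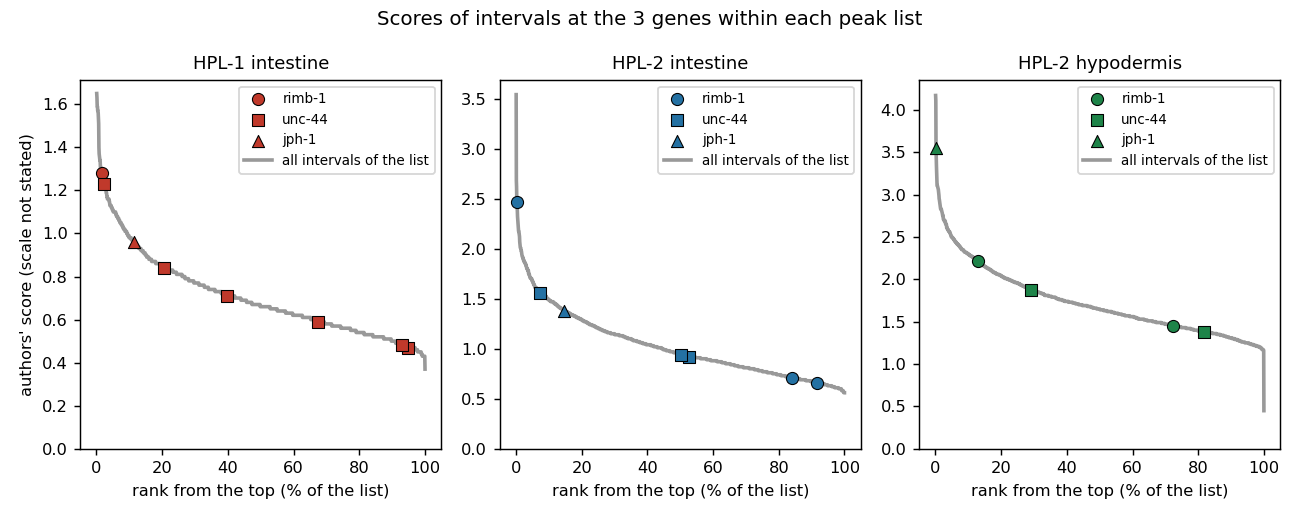
Authors' score (vertical axis, scale not stated) against rank from the top as a percentage of each list (horizontal axis); the grey line is every interval of the list and symbols are the intervals at rimb-1 (circles), unc-44 (squares) and jph-1 (triangles). jph-1 stands at rank 3 in HPL-2 hypodermis with a score of 3.55 and rimb-1 at rank 5 in HPL-2 intestine with 2.47, whereas most unc-44 intervals lie in the middle or at the low end.

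The 3 genes thus differed in how evenly the lists covered them, with no count over other genes to set beside this. Of the sequence under any interval, all lists covered 100% at jph-1 (730 of 730 bp), 27.4% at rimb-1 (859 of 3138 bp) and 0% at unc-44 (0 of 6308 bp), counted over the body and 1 kb on either side. Of the rimb-1 body, HPL-1 covered 5.22% and HPL-2 16.5% in intestine, and HPL-2 covered 4.57% in hypodermis. Of the unc-44 body, HPL-1 covered 12.6% and HPL-2 5.12% in intestine, and HPL-2 covered 1.76% in hypodermis. Every list covered 13.5% of the jph-1 body. An FDR of 0.01 or below was reached by 3 of 3 intervals at jph-1, 4 of 6 at rimb-1 and 6 of 11 at unc-44. Over the whole lists it was reached by 53.7% (HPL-1) and 65.05% (HPL-2) of intervals in intestine and by 59.5% in hypodermis.

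An interval at a gene of this kind has to be read against gene length. An interval in every list was found at 259 of 19971 protein-coding genes (1.3%), rimb-1, unc-44 and jph-1 included. Among the 952 genes of at least 10 kb, which include rimb-1 and unc-44, the shares were 18.6%, 25.6% and 22.5%, and 5.67% had an interval in all lists. unc-44 is the 62nd longest and rimb-1 the 224th longest protein-coding gene of the table, and jph-1 is among the longest 13.8%. Of the 2764 genes at least as long as jph-1, itself included, 360 had an interval of HPL-1 in intestine. For HPL-2 it was 520 in intestine and 447 in hypodermis. Of the 224 genes at least as long as rimb-1, itself included, 60, 90 and 80 had one in the same order.

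The number of HPL-1 intervals at unc-44 was the highest of all protein-coding genes, with 6, followed by 5 at unc-22, the gene of the giant muscle protein twitchin. Of the 62 genes at least as long as unc-44, itself included, 24 had any HPL-1 interval. With only intervals of an FDR of at most 0.01 the count at unc-44 was 3, and 2 genes had more, so that the first place rests on the intervals with the highest FDR. For HPL-2, 7 of these 62 genes, unc-44 included, had 3 or more intervals in intestine, and 17 had 2 or more in hypodermis.

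**Figure D3:**
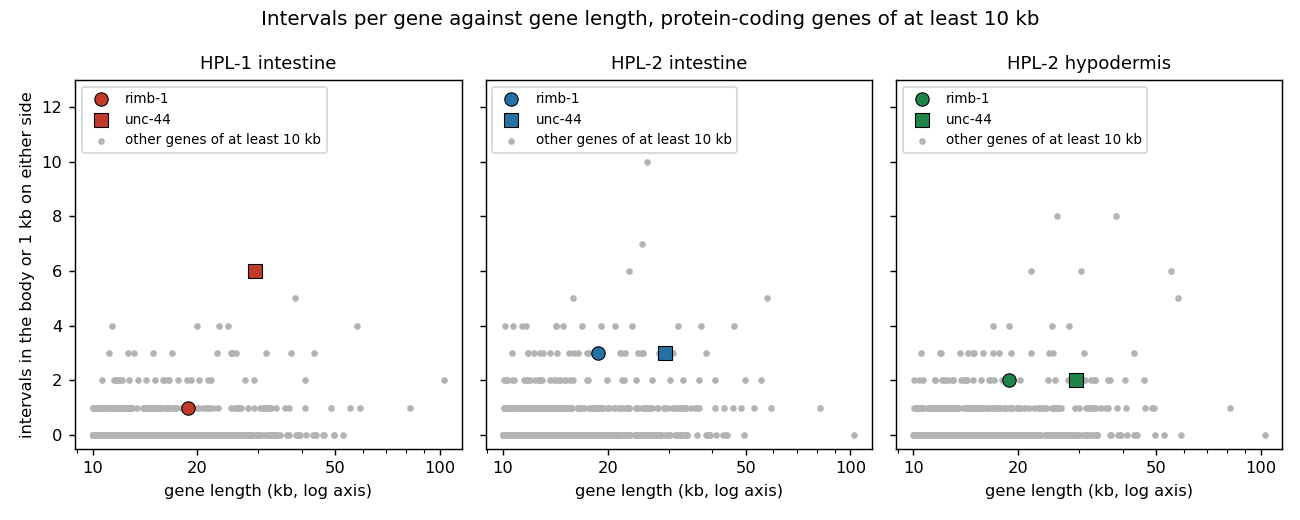
Number of intervals in the body or 1 kb on either side (vertical axis) against gene length in kb (horizontal log axis) for protein-coding genes of at least 10 kb, 1 grey point per gene, overlapping where genes coincide; rimb-1 and unc-44 are marked, and jph-1 is shorter than 10 kb. unc-44, with 6 intervals, lies above all other genes for HPL-1 in intestine, and both genes lie among other long genes for HPL-2.

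The surroundings were counted without the genes' own windows, since the intervals inside these chose the genes. Within 100 kb of rimb-1 there were 2 other intervals of HPL-1 in intestine, 4 of HPL-2 in intestine and 5 of HPL-2 in hypodermis, a density of 1.01, 2.02 and 2.53 per 100 kb. Over the genome the densities were 1.34, 1.66 and 1.57. Around unc-44, which lies at 34.2% of chromosome IV, there were 1, 2 and 2 others (0.505, 1.01 and 1.01 per 100 kb), and around jph-1 there were 0, 2 and 2 (0, 1.01 and 1.01 per 100 kb). These counts are small and the differences were not tested.

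The protein-coding genes with the most similar profile were found from the share of the body plus 1 kb on either side that each list covered, by Euclidean distance over these 3 values. For jph-1, with 9.84% in each list, they were bath-29 (8.86%, 9.34% and 8.83%), daf-38 (11.2%, 9.25% and 8.72%) and nhr-239 (8.23%, 8.58% and 8.58%). For rimb-1, with 4.72%, 15.1% and 4.32%, they were F43B10.1 (6.42%, 16.6% and 3.25%), lron-11 (1.89%, 12.5% and 5.12%) and the intracellular cation channel gene tric-1B.1 (8.15%, 13.3% and 4.72%). For unc-44, with 11.8%, 6.66% and 2.07%, they were the calpain family gene clp-7 (10.1%, 6.14% and 3.07%), C34E7.3 (12.4%, 8.9% and 0%) and rocf-1 (13.9%, 7.84% and 0%). The values are for HPL-1 and then HPL-2 in intestine and last for HPL-2 in hypodermis, and the distances, 1.5 to 3.91 percentage points, rest on 3 values per gene.

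Related genes were described by 4 lists, and some genes are in more than 1 of them. Together these lists held 86 genes other than the 3, of which 85 were in the annotation. Their median length was 8393 bp, against 2006 bp for all protein-coding genes. Intervals of HPL-1 in intestine lay at 14 (16.5%) of them, of HPL-2 in intestine at 19 (22.4%) and of HPL-2 in hypodermis at 12 (14.1%), beside 6.93%, 8.31% and 8.1% of all protein-coding genes. Of these genes, 33 were at least 10 kb long, and 10 (30.3%), 8 (24.2%) and 8 (24.2%) of them had an interval in the same order, beside 18.6%, 25.6% and 22.5% of all protein-coding genes of that length. Only vab-10, tric-1B.1 and dys-1 had an interval in every list.

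Of the genes of the presynaptic active zone and of vesicle release, the setting of RIMB-1, 3 of 32 (9.38%) had an interval of HPL-1 in intestine, 5 (15.6%) of HPL-2 in intestine and 0 of HPL-2 in hypodermis, beside 6.93%, 8.31% and 8.1% of all protein-coding genes. They were the synaptogyrin gene sng-1 (HPL-1 score 1.06), the synapsin gene snn-1 (HPL-2 intestine score 1.31), the receptor tyrosine phosphatase gene ptp-3 (0.67 for HPL-1 and 0.92 for HPL-2 in intestine), the active zone assembly gene syd-1 (0.63 for HPL-1) and, for HPL-2 in intestine, elks-1 (0.88), the presynaptic calcium channel gene unc-2 (0.77) and the calcium channel beta subunit gene ccb-1 (0.63). None of these scored as high in its list as the leading rimb-1 interval. rimb-1 was chosen for its peaks, so nothing is read from this. Of the 13 genes of this list at least 10 kb long, 1 (7.69%), 3 (23.1%) and 0 had an interval in the same order. Of all protein-coding genes of that length, 18.6%, 25.6% and 22.5% had one. Most of the 24 genes that follow are also in this list, so the counts are not independent. Of 24 genes used in most neurons, 2 (8.33%) had an interval of HPL-1 in intestine, 3 (12.5%) of HPL-2 in intestine and 0 of HPL-2 in hypodermis, beside the same 6.93%, 8.31% and 8.1%. Beside sng-1 and snn-1 these were the dense core vesicle gene ida-1 (0.67 for HPL-1) and, for HPL-2 in intestine, unc-33 (0.85) and the tubulin gene tbb-1 (0.83). Only 6 genes of this list are at least 10 kb long, and 1 (16.7%), 1 (16.7%) and 0 of them had an interval in the same order.

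Of the genes of the membrane skeleton and its axonal partners, the setting of UNC-44, 5 of 21 (23.8%) had an interval of HPL-1 in intestine, 7 (33.3%) of HPL-2 in intestine and 4 (19.05%) of HPL-2 in hypodermis, beside 6.93%, 8.31% and 8.1% of all protein-coding genes and 18.6%, 25.6% and 22.5% of those of at least 10 kb. Of the 8 genes of this list of that length, 5 (62.5%), 3 (37.5%) and 4 (50%) had an interval in the same order. The heavy spectrin gene sma-1 led for HPL-1 with a score of 1.35, followed by the spectraplakin gene vab-10 (0.83), which had 4, 5 and 5 intervals in the 3 lists. The cell adhesion gene sax-7 had 2 HPL-1 intervals (top score 0.71) and the related lad-2 had 1 HPL-2 interval in each tissue (1.03 in intestine and 2.26 in hypodermis). HPL-2 in intestine also lay at the beta spectrin gene unc-70 (0.9), the kinase gene unc-51 (1.08) and unc-33 (0.85), whose product is localised by ankyrin. The axon guidance gene unc-53 had 1 interval of HPL-1 (0.63) and 1 of HPL-2 in hypodermis (1.23).

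Of the genes of membrane junctions and calcium handling, the setting of JPH-1, 5 of 28 (17.9%) had an interval of HPL-1 in intestine and 8 (28.6%) in each HPL-2 list, beside 6.93% for HPL-1 and 8.31% and 8.1% for HPL-2 over all protein-coding genes. Over genes of at least 10 kb, the shares were 18.6%, 25.6% and 22.5%. Of the 12 genes of this list of that length, 3 (25%), 3 (25%) and 4 (33.3%) had an interval in the same order. The ryanodine receptor gene unc-68, which encodes the calcium release channel of the sarcoplasmic reticulum, had 2 HPL-1 intervals with a top score of 1.1. The L-type calcium channel gene egl-19 had 3 intervals of HPL-1 (top score 0.81) and 1 of HPL-2 in hypodermis (1.96). tric-1B.1 reached 0.65 for HPL-1, 2.03 for HPL-2 in intestine and 1.52 for HPL-2 in hypodermis. The dystrophin gene dys-1 reached 0.87, 0.91 and 1.51 in the same order, and the catenin-related gene ctn-1 had HPL-2 intervals with top scores of 1.56 in intestine and 2.12 in hypodermis. The calcium pump gene mca-2 reached 0.66 for HPL-1 and 1.03 for HPL-2 in intestine. The dystrobrevin gene dyb-1 (1.57) and the calcium pump gene mca-3 (1.49) had intervals of HPL-2 in hypodermis only among the 3 lists. jph-1 had 3.55 in hypodermis, and the highest hypodermis score among the other genes of this list was the 2.12 of ctn-1. In the other lists jph-1 did not lead, with 1.38 for HPL-2 in intestine beside 2.03 at tric-1B.1 and 1.56 at ctn-1, and 0.96 for HPL-1 beside 1.1 at unc-68. jph-1 was chosen for its peaks, so nothing is read from its place among these genes.

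**Figure D4:**
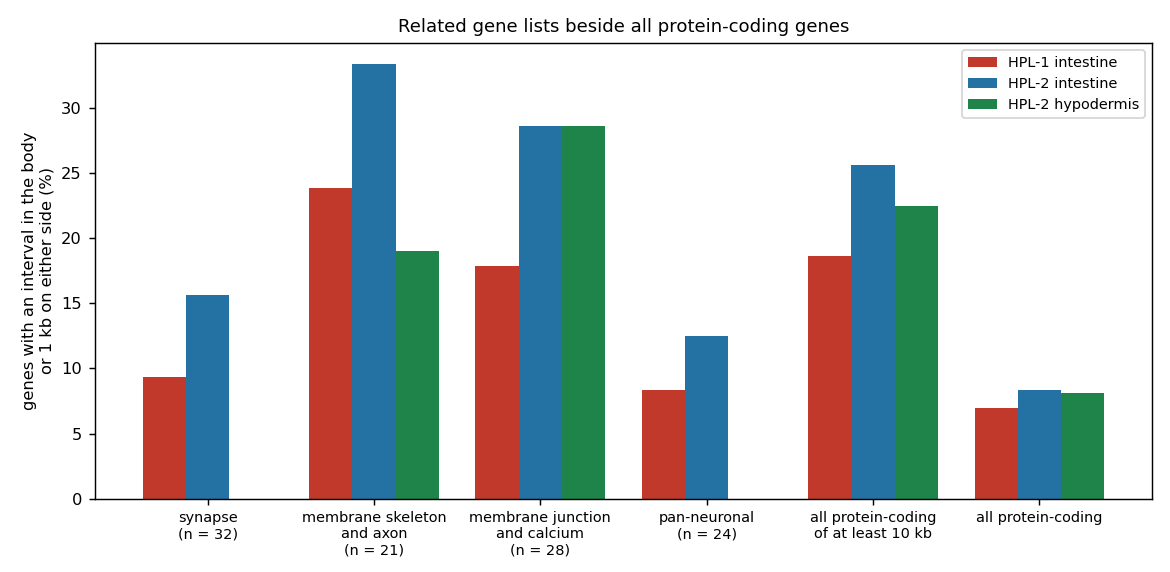
Share of genes with an interval in the body or 1 kb on either side (vertical axis, percent; bars from 0), for each list of related genes without rimb-1, unc-44 and jph-1 and for all protein-coding genes, coloured by peak list. The synaptic and pan-neuronal lists, which have most of the pan-neuronal genes in common, stand at 0% for HPL-2 hypodermis. The membrane skeleton and junction lists lie between 17.9% and 33.3%, beside 18.6% to 25.6% for genes of at least 10 kb. Only 8 of 21 and 12 of 28 genes of these lists are that long. For those alone, not drawn, the shares were 62.5%, 37.5% and 50% for membrane skeleton and 25%, 25% and 33.3% for junction.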

How the data were processed

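DamID-seq profiles of L4 larvae were used as 3 peak lists, and 10 libraries in 5 groups stand behind them per the labels. Per the file names, the authors called each list at an FDR of 0.05 on an averaged profile set against Dam, although each is filed under a replicate 1 sample. The peak caller, the depth and how many libraries were averaged were not given in the sources used here. The submitters' processing notes name R 3.4.3, SAMtools 1.9, Bowtie2 2.3.4 and the WBcel235 assembly. The deposited lists give chromosome, start, end, a score per peak on an unstated scale, and other values in the form of an FDR. DamID resolves binding to GATC fragments, so interval edges are fragment edges, and a peak means a value above GFP::Dam.

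Intervals were matched to the RefSeq gene table of WBcel235 (46926 genes; 12 protein-coding genes off the 6 chromosomes were left out) with Python 3.11.15 and pandas 2.3.3. Overlap code was checked on simulated intervals. The genes and lists were chosen with earlier results of these data known. Named genes were the 3 members, at most 8 bound genes per list ordered by rank of their best interval within its peak list, the 3 nearest profiles per member, and genes under a member's intervals; unc-22 was named after its values were seen. No sequence was printed, and exon positions were not analysed here. Alternatives were a stricter FDR, other windows and other overlap rules.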

Additional observations from a re-analysis of the deposited data

How the results depend on the processing

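The jph-1 counts did not change under any alternative run. At an FDR of at most 0.01, rimb-1 had 1 HPL-2 intestine interval, unc-44 had 3 of HPL-1 intestine and 1 of HPL-2 hypodermis, and the HPL-2 lists of both tissues shared 1 interval at rimb-1. With the gene body only, and likewise with at least 50% of the interval inside the window, HPL-2 hypodermis had 1 interval at rimb-1 and 1 at unc-44. The overlap of the HPL-2 lists beside unc-44 fell to 0 when 50% of the smaller interval had to be shared. With every interval set to 500 bp around its midpoint it was also 0. So were the overlaps of HPL-2 intestine with HPL-1 and with HPL-2 hypodermis at rimb-1. In the rimb-1 body, the HPL-2 intestine interval is the widest of those that overlap. The HPL-2 pair beyond the end of rimb-1 was lost because both resized intervals fell outside the 1 kb flank. At the stricter FDR, 3.87% of protein-coding genes had an HPL-1 intestine interval, 5.71% an HPL-2 intestine interval and 5.1% an HPL-2 hypodermis interval. Of the 85 related genes, 10, 12 and 6 had one in the same order. The share among genes of at least 10 kb was not counted at this FDR. Windows of 2 kb changed no count of a member. HPL-2 intestine intervals at rimb-1 went from 3 to 2 with the gene body only and under the 50% window rule. At unc-44 they went from 3 to 2 at the stricter FDR and with the gene body only. No paired analysis was possible because each fusion and tissue has 1 peak list here, named as an average and without values per replicate, and no result comes from a test; for the same reason no replicate could be left out.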
